A study of Rattus norvegicus with 65 samples.

Results

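Hyaluronan is a very long, unbranched sugar polymer that cells spin directly into the space around them, where it holds water and forms a soft coat together with the proteins that bind it. Its amount is set by synthases in the cell membrane and by enzymes that cleave it outside the cell, at the surface or in lysosomes, and cells sense it through receptors such as CD44. In the developing heart it fills the cardiac jelly and the valve cushions together with versican, and in the injured heart it belongs to the provisional matrix laid down mainly by fibroblasts. The 9 genes described here cover that cycle: the synthases Has2 and Has3, the depolymerising proteins Cemip and Cemip2, the hyaluronidases Hyal1 and Hyal2, the receptor Cd44, and the matrix binders Vcan and Hapln1. They were chosen by name among the 14554 genes of the count table, and all 9 were in it. The fall of Cemip under Ace at 6 h was known when the genes were chosen, so that value is given as a description without a test.

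RNA was sequenced from primary cardiomyocytes of newborn rats, in 65 libraries that fell into 10 groups. Cells were exposed for 6 or 24 h to 10 mM 5-fluorouracil (5FU, a pyrimidine analogue used against tumours), 2.5 mM acetaminophen (Ace, a painkiller) or 1.25 µM doxorubicin (Dox, an anthracycline that poisons topoisomerase II). Each drug had the solvent control of its own DMSO content, DMSO1 with 1% for 5FU and DMSO2 with 0.25% for Ace and Dox, so Ace and Dox share their control libraries. Both 5FU groups, both DMSO1 groups and Ace at 6 h had 6 libraries each, and the other groups had 7 each. The cells came from pooled hearts of more than 1 litter and were divided over the wells afterwards. The libraries are therefore parallel cultures of a common preparation, and p-values measure the spread between cultures. The total of estimated counts ran from 14332827 to 25738297 per library, the highest belonging to Dox at 24 h. Levels are given in CPM, a gene's count scaled to a library of standard size after correction by trimmed mean of M-values (TMM) factors. Because no transcript lengths were used here, the levels of the members are compared between groups of libraries and not between genes. Where a marker list's gene with the highest CPM is named, its CPM is not corrected for length.

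Cardiomyocyte markers were high in all groups, as the label of the cells has it. The 11 measured markers summed to between 23970 CPM in the lowest library of Dox at 24 h and 72310 CPM in the highest library of 5FU at 6 h, and Myh6, the fast heart myosin, had the highest mean CPM of them in every group but Dox at 24 h, where Nppa, the atrial natriuretic peptide gene, had the highest, 12230 CPM, and Myh6 stood at 1029 CPM. Markers of other heart cells were also present. The 10 fibroblast markers summed to a median of 16670 CPM in DMSO2 at 24 h, with the collagen gene Col1a1 at the highest mean, 6878 CPM, and endothelial, macrophage, smooth muscle and epicardial markers were all above 0 in each group.

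A few libraries stood apart from the others of their group. Over all genes, 6 libraries lay more than 1.3 times the median distance of 0.277 (root mean square, log2) from their group's median: library 1 of 5FU at 6 h (0.404), library 3 of DMSO1 at 6 h (0.367), libraries 4 and 7 of Dox at 6 h (0.366 and 0.373), library 1 of DMSO1 at 24 h (0.427) and library 7 of Dox at 24 h (0.406). Library numbers follow the columns of the table and only name a library. For the hyaluronan genes, library 1 of DMSO1 at 24 h lay on the side of the 5FU libraries, with 27.9 CPM of Cemip, 108 CPM of Vcan and 32.4 CPM of Cd44, where the 5 others of that group had 44.99 CPM or more of Cemip, 152 CPM or more of Vcan and at most 22.01 CPM of Cd44. Conversely, library 7 of Ace at 24 h lay nearer the control for Hyal1 and Vcan, with 8.06 and 159 CPM. For Cemip2 it lay farthest from the control in its group, at 154 CPM. With the 6 distant libraries left out together, an alternative chosen after seeing the data, no called change of a member turned direction.

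**Figure D1:**
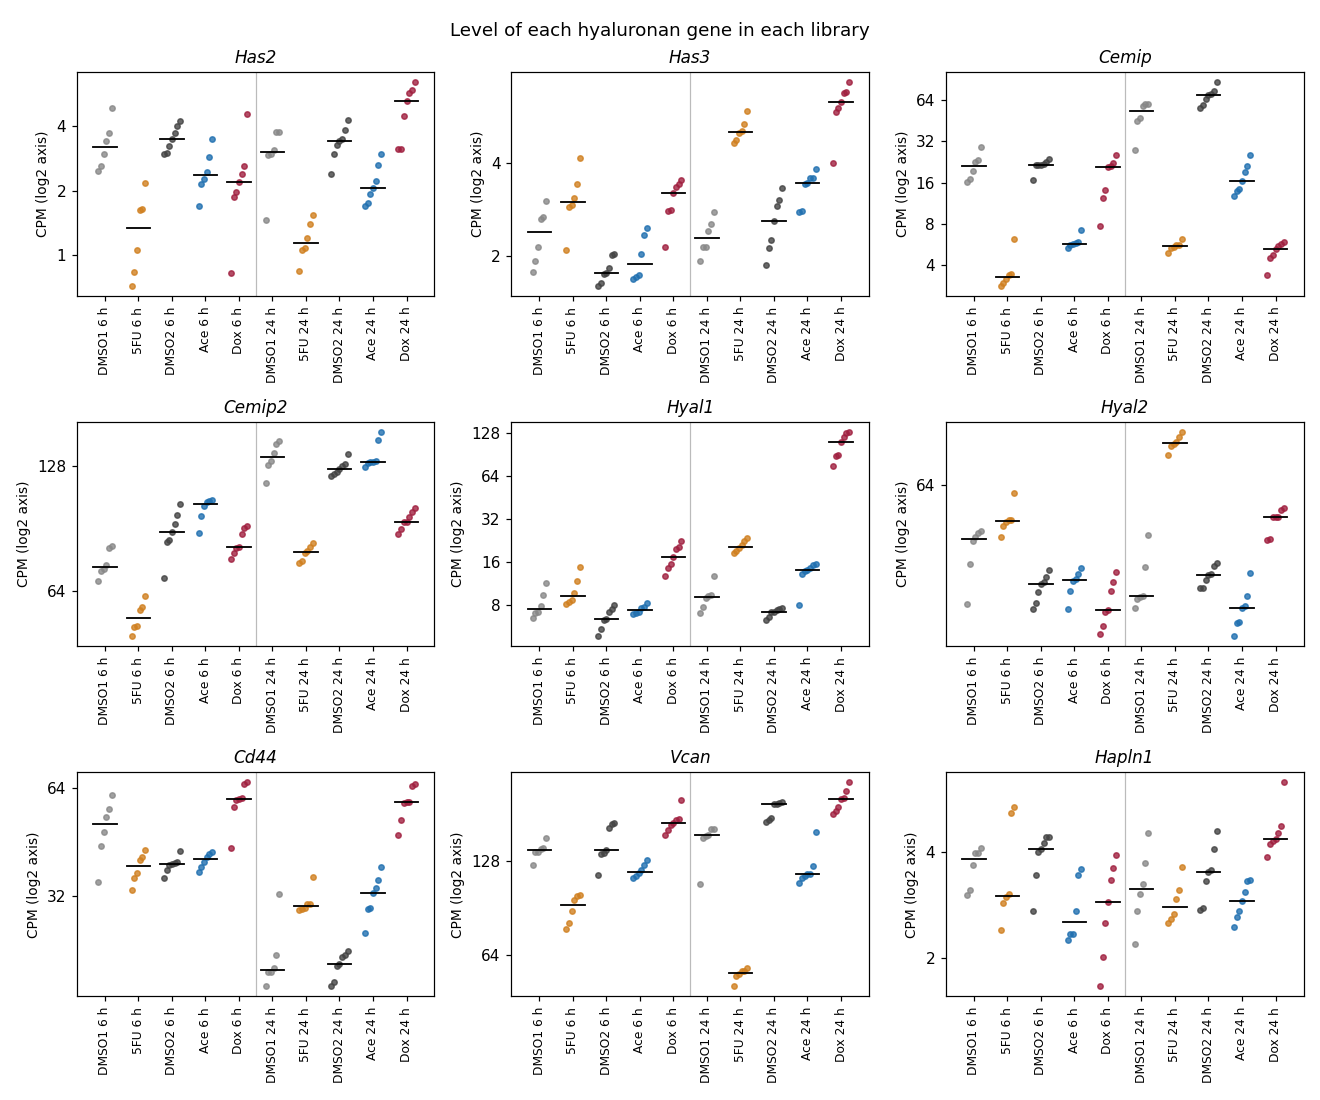
Level of the 9 hyaluronan genes in each of the 65 libraries, as TMM-scaled CPM on log2 axes that differ between panels, with the groups on the horizontal axis, 1 point per library and a black bar at the group median. Cemip is lowest in both 5FU groups, Ace at 6 h and Dox at 24 h, and the 7 Dox libraries at 24 h hold 75.3 to 130 CPM of Hyal1, above all other libraries.

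Among the members the widest changes were in breakdown genes: Cemip was far below its control under all 3 drugs by 24 h, and Hyal1 rose under all 3, most under Dox. Cd44 was also above its control under all 3 drugs at 24 h, while Vcan was below its control under 5FU and Ace but not under Dox. A gene was called when its Benjamini-Hochberg false discovery rate (FDR) over all 14554 genes was below 0.01 by edgeR's quasi-likelihood test. Because many genes changed, the members' counts are read against the share of all genes called.

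Under 5FU at 6 h, 5 members were lower and 1 was higher, while 24.5% of all genes were lower and 23.4% higher. The median log2 fold change was -0.36 over the members and -0.0016 over all genes. By 24 h 5FU had 8 members called, 4 lower and 4 higher, against 27.8% and 28% of all genes, with a member median of -0.15 and an all-gene median of -0.0094. They were divided evenly between directions.

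Ace at 6 h had 2 members called, both lower, where 15.2% of all genes were lower and 16.5% higher. One is Cemip, whose fall was known when the genes were chosen, so nothing is read from this count, and the other is Vcan. DESeq2 called 3, Cemip2 being the one added, as higher (0.18). At 24 h Ace had 3 lower and 2 higher, against 19.1% and 18.2%, and the member median was -0.18 beside -0.00082 over all genes. The medians at 6 h were 0.03 for the members and 0.0023 for all genes. DESeq2 called 6 members at 24 h, Has2 being the one added.

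Dox at 6 h had 4 members called, all higher (Has3, Hyal1, Cd44 and Vcan), against 31.5% of all genes higher and 32.7% lower, with a member median of -0.08 and an all-gene median of 0.0029. This one-sided count rests on the scaling: by library size alone 7 were called, 3 higher and 4 lower (Has2, Cemip2, Hyal2 and Hapln1), and Vcan was not. By 24 h Dox had 4 higher and 2 lower, where 40.4% of all genes were higher and 41% lower, with medians of 0.39 and 0.0028. DESeq2 called 8 members at 24 h, Has2 and Hapln1 being those added.

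A stricter reading asks whether the libraries of drug and control overlap at all. At 6 h the 2 groups did not overlap for 4 members under 5FU (28.2% of all genes), for 1 member under Ace (24.5%), which is Cemip and only described, and for 3 members under Dox (42.6%). At 24 h they did not overlap for 6 members under 5FU (42.9%), 4 under Ace (26.9%) and 6 under Dox (68.2%). Separation between groups was thus common across all genes, most of all under Dox.

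Has2 encodes the synthase that makes most hyaluronan in the embryonic heart. Its counts were low here, from 14 to 107 reads per library, so its levels carry a wide counting error. In the 6 DMSO1 libraries at 6 h Has2 lay between 2.47 and 4.89 CPM (median 3.20), and under 5FU between 0.72 and 2.17 CPM (median 1.34). No 5FU library reached the lowest control library. At 24 h the DMSO1 libraries held 1.47 to 3.79 CPM (median 3.04) and the 5FU libraries 0.84 to 1.55 CPM (median 1.14). Here the groups touched only through library 1 of DMSO1, the library that stood apart. Under 5FU the log2 fold change was -1.32 (SE 0.24, FDR 4.4e-06 by edgeR's quasi-likelihood test) at 6 h and -1.33 (SE 0.25, FDR 6e-06) at 24 h, so the fall was as large early as late, with a difference of -0.01 (SE 0.33).

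Under Dox the same synthase gene lay on different sides of its control at the 2 times. At 6 h the Dox libraries ran from 0.82 to 4.55 CPM (median 2.20), against 2.97 to 4.25 CPM (median 3.48) in DMSO2, and both ends of the Dox range were the distant libraries 7 and 4. At 24 h Dox held 3.13 to 6.45 CPM (median 5.25) and DMSO2 2.40 to 4.28 CPM (median 3.41). Most Dox libraries were thus below the control early and above it late. By edgeR neither difference passed by itself, with log2 fold changes of -0.58 (SE 0.21, FDR 0.011 by edgeR's quasi-likelihood test) and 0.52 (SE 0.20, FDR 0.014). Their difference did, by 1.10 (SE 0.29, FDR 0.00061 by the same test). With the 6 distant libraries left out both differences passed, at -0.66 (FDR 0.00125 by edgeR's quasi-likelihood test) and 0.62 (FDR 0.000452). Leaving out only library 4 of Dox at 6 h gave -0.83 (FDR 0.000379 by that test), and the later difference passed without library 4 of DMSO2, 4 of Dox or 7 of Dox, at 0.58 to 0.64. Other single libraries made the differences smaller, down to -0.44 without library 7 of Dox at 6 h and 0.45 without library 1 of DMSO2 at 24 h. The later difference also passed with DESeq2 (0.57), its size factors (0.56), library size scaling (0.57), edgeR's own filter (0.55) and the compared groups only (0.52), and the earlier one with library size scaling (-0.74). Ace libraries held 1.69 to 3.495 CPM (median 2.37) at 6 h and 1.70 to 2.97 CPM (median 2.07) at 24 h. These medians were below DMSO2 at both times without passing, with log2 fold changes of -0.51 (FDR 0.053 by edgeR's quasi-likelihood test) and -0.63 (FDR 0.0104, just above the threshold). Without the 6 distant libraries both passed (-0.54 and -0.63), and the later one also did without library 2 or 7 of Ace or library 1 of DMSO2, at -0.72 to -0.68, and with DESeq2 and its size factors (both -0.64). Both also passed with the compared groups only (-0.51 and -0.63). In order of medians Has2 went from Dox at 24 h down through the 4 controls, Ace at 6 h, Dox at 6 h, Ace at 24 h and 5FU at 6 h to 5FU at 24 h, and each of the 9 pairs of neighbours in that order overlapped.

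Has3 encodes the second synthase, which makes shorter chains. It was also a low-count gene, at 31 to 124 reads per library. In DMSO1 it lay between 1.78 and 3.01 CPM (median 2.39) at 6 h and between 1.93 and 2.79 CPM (median 2.28) at 24 h. The 5FU libraries held 2.09 to 4.13 CPM (median 3.002) at 6 h and 4.63 to 5.88 CPM (median 5.03) at 24 h. At 24 h every 5FU library was above every control library, whereas at 6 h they overlapped. On the log2 scale the change was 0.39 at 6 h (SE 0.14, FDR 0.015 by edgeR's quasi-likelihood test), which passed only without library 3 of 5FU or library 2 of DMSO1 (0.48 and 0.47), and 1.14 at 24 h (SE 0.14, FDR 1.6e-10).

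Dox raised Has3 at both times. DMSO2 held 1.61 to 2.03 CPM (median 1.77) at 6 h and 1.87 to 3.31 CPM (median 2.60) at 24 h, while Dox held 2.14 to 3.53 CPM (median 3.20) and then 3.99 to 7.27 CPM (median 6.29). The groups did not overlap at either time. The log2 fold changes were 0.75 (SE 0.14) and 1.24 (SE 0.13), with FDR 2.2e-06 and 7.4e-14 by edgeR's quasi-likelihood test. Ace held 1.69 to 2.46 CPM (median 1.89) at 6 h, with 4 of its 6 libraries inside the control range (0.15, FDR 0.45 by that test, and 0.08 without library 6 of Ace), and 2.77 to 3.83 CPM (median 3.44) at 24 h. The latter difference of 0.37 (FDR 0.014 by edgeR's quasi-likelihood test) passed without library 2 or 4 of Ace or library 3 or 7 of DMSO2, at 0.41 to 0.44, and also without the 6 distant libraries (0.38) and with library size scaling (0.43). In the order of medians, Dox and 5FU at 24 h stood at the top, separated from Ace at 24 h below them, and the other 8 pairs of neighbours overlapped.

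Cemip encodes a secreted protein needed for cells, fibroblasts above all, to depolymerise hyaluronan outside the lysosome. It showed the largest fall of the 9. In DMSO1 it lay between 16.1 and 29.1 CPM (median 20.99) at 6 h and between 27.9 and 59.9 CPM (median 53.045) at 24 h. The 5FU libraries held 2.81 to 6.20 CPM (median 3.27) at 6 h and 4.88 to 6.14 CPM (median 5.48) at 24 h. Every 5FU library was far below every control library, the deviating library 1 of DMSO1 at 24 h included. The log2 fold change was -2.53 (SE 0.21, FDR 1.1e-16 by edgeR's quasi-likelihood test) at 6 h, which is 5.79-fold lower, and -3.18 (SE 0.19, FDR 4.6e-22), or 9.08-fold lower, at 24 h. The control itself rose over this time, and the effects at the 2 times were not shown to differ (-0.65, SE 0.29, FDR 0.053 by the same test).

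Under Dox the fall of Cemip came late. DMSO2 held 16.8 to 23.8 CPM (median 21.6) at 6 h, and Dox 7.70 to 25.6 CPM (median 20.7). Only libraries 4, 6 and 7 of Dox, at 12.3, 14.04 and 7.70 CPM, were below the control range. At 24 h DMSO2 held 56.3 to 87.0 CPM (median 69.7) and Dox 3.39 to 5.91 CPM (median 5.21). Its log2 fold change went from -0.28 (SE 0.16, FDR 0.12 by edgeR's quasi-likelihood test) to -3.81 (SE 0.18, FDR 9.8e-29), which is 13.99-fold lower, and the 2 effects differed by -3.53 (SE 0.24, FDR 2.4e-20). Without library 7 of Dox at 6 h the early value was -0.15.

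Under Ace Cemip was below its control at both times. At 6 h its 6 libraries held 5.35 to 7.21 CPM (median 5.71), a log2 fold change of -1.86 (SE 0.19) given here as a description. At 24 h the Ace libraries held 12.8 to 25.6 CPM (median 16.3), all below the control. The log2 fold change was -1.97 (SE 0.16, FDR 1.3e-16 by edgeR's quasi-likelihood test). In order of medians, the 2 controls at 24 h stood highest, and DMSO1 at 24 h reached into the range of DMSO1 at 6 h through its library 1, at 27.9 CPM. DMSO2, DMSO1 and Dox at 6 h and Ace at 24 h followed with overlapping ranges, and after a gap came Ace at 6 h, 5FU at 24 h, Dox at 24 h and 5FU at 6 h, which overlapped one another.

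Cemip2 encodes a membrane-anchored relative of Cemip that has been described as a cell-surface hyaluronidase in the mouse. It changed less. In DMSO1 it ran from 67.6 to 82.3 CPM (median 73.2) at 6 h and from 116 to 147 CPM (median 135) at 24 h, and under 5FU from 49.9 to 62.4 CPM (median 55.3) and from 74.9 to 83.6 CPM (median 79.3). The 5FU libraries were below all control libraries at both times. Log2 fold changes of -0.43 (SE 0.06) and -0.76 (SE 0.06) had FDR 5.7e-08 and 2.5e-16 by edgeR's quasi-likelihood test. The effect deepened by -0.33 (FDR 0.0015 by the same test), a call lost with library size scaling (-0.27).

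Under Dox the Cemip2 fall passed at 24 h. There it held 87.7 to 101 CPM (median 94.0), against 121 to 136 CPM (median 126) in DMSO2, without overlap and with a log2 fold change of -0.42 (SE 0.06, FDR 1.9e-09 by edgeR's quasi-likelihood test). At 6 h Dox held 76.3 to 91.5 CPM (median 81.5), a value of -0.08 (SE 0.06, FDR 0.24 by that test), and the effects differed by -0.34 (FDR 0.00021). The early value was -0.04 without library 4 and -0.13 without library 7 of DMSO2. Scaled by library size alone, it was -0.23 and passed, and the difference of effects was -0.14 and did not. Ace held 88.0 to 106 CPM (median 104) at 6 h against 68.9 to 103 CPM (median 88.9) in DMSO2, and 127 to 154 CPM (median 131) at 24 h. Neither Ace difference passed (0.18, FDR 0.012, and 0.10, FDR 0.15, by edgeR's quasi-likelihood test), though the first did, at 0.20 to 0.23, without library 3 or 6 of Ace or library 4, 5 or 6 of DMSO2, with DESeq2 (0.18) and with edgeR's own filter (0.20). Among the 9 pairs of neighbouring medians 7 overlapped, and the order ran from the 3 groups of DMSO1, Ace and DMSO2 at 24 h down to 5FU at 6 h, which stood apart at the bottom.

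Hyal1 encodes the lysosomal hyaluronidase that cuts hyaluronan into small fragments. It showed the largest rise of the 9. DMSO2 held 4.88 to 8.01 CPM (median 6.38) at 6 h and 6.32 to 7.66 CPM (median 7.17) at 24 h. Dox held 12.8 to 22.5 CPM (median 17.5) at 6 h and 75.3 to 130 CPM (median 112) at 24 h. Each of the 7 Dox libraries was above all DMSO2 libraries at both times, and at 24 h above every other library of the series. Hyal1 had a log2 fold change of 1.43 (SE 0.14, FDR 4.2e-14 by edgeR's quasi-likelihood test) at 6 h, or 2.69-fold, and 3.90 (SE 0.14, FDR 1.2e-35), or 14.95-fold, at 24 h. The effect grew by 2.47 (SE 0.19, FDR 7e-18 by the same test).

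The other drugs raised Hyal1 at 24 h, by less. DMSO1 held 6.49 to 11.4 CPM (median 7.54) at 6 h and 7.05 to 12.8 CPM (median 9.15) at 24 h, and 5FU held 8.21 to 14.9 CPM (median 9.24) and then 18.5 to 23.7 CPM (median 20.5). The groups overlapped at 6 h and were apart at 24 h, with log2 fold changes of 0.33 (SE 0.15, FDR 0.059 by edgeR's quasi-likelihood test) and 1.17 (SE 0.15, FDR 2.4e-10). Without library 4 of 5FU the early value was 0.19. Ace held 6.97 to 8.33 CPM (median 7.39) at 6 h and 8.06 to 15.5 CPM (median 14.2) at 24 h. Library 7 of Ace lay just above the control maximum and far below the 6 others, which had 13.2 CPM or more. Log2 fold changes under Ace were 0.20 (SE 0.15, FDR 0.32 by edgeR's quasi-likelihood test) and 0.93 (SE 0.14, FDR 1.1e-07). Hyal1 effects at 24 h exceeded those at 6 h by 0.85 (FDR 6e-04 by that test) for 5FU and by 0.73 (FDR 0.008) for Ace. The Ace difference is near the threshold: it did not pass without any of 19 libraries, which were libraries 1 to 6 of Ace at 24 h, 1 and 3 to 6 of Ace at 6 h, 3 to 6 of DMSO2 at 24 h and 1, 2, 5 and 6 of DMSO2 at 6 h, with values of 0.67 to 0.74. Ranked by median, Dox at 24 h stood apart at the top, and the 8 pairs of neighbours below it, from 5FU at 24 h to DMSO2 at 6 h, overlapped.

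In the rat annotation the Hyal1 gene overlaps Hyal3, a related hyaluronidase, and Naa80, an actin acetyltransferase. The reads were assigned with the default settings of kallisto, which do not use strand, and the split of reads between overlapping genes was not tested. Under Dox at 24 h these neighbours were higher too, Hyal3 by 1.39 (SE 0.09, FDR 1e-22 by edgeR's quasi-likelihood test) and Naa80, chosen for its position, by 1.98 (SE 0.07, FDR 2.7e-35). Under 5FU and Ace at 24 h, where Hyal1 rose, Hyal3 was at 0.06 (FDR 0.61 by that test) and -0.07 (FDR 0.53), and Naa80 rose by 0.63 (FDR 1.6e-10) under 5FU and was at 0.18 (FDR 0.029) under Ace. At 6 h both were higher under Dox, Hyal3 by 0.53 (FDR 1.3e-06 by edgeR's quasi-likelihood test) and Naa80 by 0.43 (FDR 3.9e-07). Under 5FU at 6 h Hyal3 was higher by 0.55 (FDR 4.6e-06 by that test) and Naa80 lower, at -0.24 (FDR 0.0088), and under Ace they were at -0.12 (FDR 0.35) and -0.07 (FDR 0.52). Has2 and Cemip2 also overlap a transcript each, a long noncoding RNA and a pseudogene, that had no row in the table.

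Hyal2 encodes the hyaluronidase anchored at the cell surface, which cuts long chains into middle-sized ones. Its libraries agreed closely. In DMSO1 it lay between 40.5 and 53.7 CPM (median 52.1) at 6 h and between 39.95 and 52.9 CPM (median 41.7) at 24 h. The 5FU libraries held 52.4 to 62.1 CPM (median 55.7) and then 72.1 to 78.6 CPM (median 75.4). By 24 h all 5FU libraries were above all others of the series, and the log2 fold change was 0.78 (SE 0.06, FDR 6.9e-18 by edgeR's quasi-likelihood test). The 6 h change of 0.17 (SE 0.06, FDR 0.0098 by that test) only just passed. It was lost without any of libraries 2 to 6 of 5FU or libraries 1 and 3 of DMSO1 (0.12 to 0.18), without the 6 distant libraries (0.13), with library size scaling (0.10) and when only those 2 groups were fitted (0.17, FDR 0.0542).

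Under Dox Hyal2 ranged from 36.1 to 45.9 CPM (median 39.5) at 6 h, within reach of the DMSO2 range of 39.8 to 46.2 CPM (median 43.7). At 24 h Dox held 51.9 to 58.7 CPM (median 56.7), above all DMSO2 libraries at 43.1 to 47.4 CPM (median 45.3). The gene was thus raised by Dox late, by 0.31 (SE 0.05, FDR 7.9e-07 by edgeR's quasi-likelihood test), after an early value of -0.08 (FDR 0.17), or -0.06 without library 6 of Dox. With library size scaling the early value was -0.24 and passed. Ace went the other way at 24 h, with 35.8 to 45.6 CPM (median 39.95) and a log2 fold change of -0.18 (SE 0.06, FDR 0.0052 by that test). This call was lost without library 1, 2, 4, 5 or 6 of Ace or library 4 or 5 of DMSO2 (-0.18 to -0.15) and with library size scaling (-0.12). At 6 h Ace held 39.7 to 46.6 CPM (median 44.4), and its value was 0.03 (FDR 0.76 by edgeR's quasi-likelihood test), which took the opposite sign, -0.01, with library size scaling and ran from 0.01 to 0.05 with single libraries left out. In the order of medians 5FU at 24 h stood apart from Dox at 24 h, the next, and the other 8 pairs of neighbours overlapped.

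Cd44 encodes the main cell-surface receptor for hyaluronan. It was the member that fell most over time in the controls, which sets the scale for the drugs. DMSO2 held 35.9 to 42.7 CPM (median 39.2) at 6 h and 18.02 to 22.6 CPM (median 20.8) at 24 h. Dox held 43.5 to 66.2 CPM (median 59.6) and 47.2 to 65.3 CPM (median 58.5). So the Dox libraries stayed near their early level while the control dropped, and no Dox library overlapped the control at either time. Cd44 had a log2 fold change of 0.58 (SE 0.09, FDR 9.2e-08 by edgeR's quasi-likelihood test) at 6 h and 1.49 (SE 0.10, FDR 2.7e-22) at 24 h.

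With Ace, Cd44 was at 37.3 to 42.3 CPM (median 40.5) at 6 h and 25.3 to 38.6 CPM (median 32.7) at 24 h. It was within the control range early and above it late. The late change was 0.64 (SE 0.10, FDR 9.1e-08 by edgeR's quasi-likelihood test), and the early one 0.04 (FDR 0.79), or 0.06 without library 1 of Ace or library 4 of DMSO2. The 5FU libraries were at 33.3 to 43.04 CPM (median 38.8) at 6 h, against 35.1 to 60.97 CPM (median 50.7) in DMSO1, and at 29.4 to 36.3 CPM (median 30.1) at 24 h, against 18.1 to 32.4 CPM (median 20.01). The sign thus turned between the 2 times, from -0.36 (SE 0.10, FDR 0.0013 by edgeR's quasi-likelihood test) to 0.49 (SE 0.11, FDR 4.6e-05), a difference of 0.85 (SE 0.14, FDR 1.3e-06). The early call was lost when only the 2 groups compared were fitted (FDR 0.0114 by the same test). At 24 h the overlap came only from library 1 of DMSO1, without which the value was 0.63. Over the 10 groups, both Dox groups had the highest medians and both controls at 24 h the lowest, and 8 of 9 pairs of neighbours overlapped, all but 5FU and DMSO2 at 24 h.

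Vcan encodes versican, the large proteoglycan whose head domain binds hyaluronan and which fills the embryonic heart matrix. In DMSO1 it was at 124 to 151 CPM (median 139) at 6 h and 108 to 162 CPM (median 155) at 24 h. The 5FU libraries were at 77.6 to 99.3 CPM (median 92.4) and 50.7 to 57.9 CPM (median 55.97). No 5FU library overlapped its control. Its log2 fold change deepened from -0.62 (SE 0.08, FDR 2e-09 by edgeR's quasi-likelihood test) to -1.43 (SE 0.08, FDR 8.7e-23), a difference of -0.81 (SE 0.12, FDR 3.1e-08).

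DMSO2 held 115 to 169 CPM (median 139) of Vcan at 6 h and 171 to 199 CPM (median 195) at 24 h. Ace held 113 to 129 CPM (median 118) and 109 to 159 CPM (median 116). At 24 h the Ace libraries were all below the control, library 7 being the closest. The log2 fold changes under Ace were -0.29 (SE 0.08, FDR 0.0016 by edgeR's quasi-likelihood test) and -0.62 (SE 0.07, FDR 2.5e-10), and their difference was -0.33 (FDR 0.024). Dox held 156 to 200 CPM (median 170) at 6 h and 181 to 229 CPM (median 203) at 24 h, so versican was not lowered by Dox in either set of libraries. The early rise of 0.23 (SE 0.07, FDR 0.005 by edgeR's quasi-likelihood test) was lost without library 1, 2, 3 or 7 of DMSO2 or library 2 of Dox (0.17 to 0.22), with library size scaling (0.07) and when only the 2 groups were fitted (FDR 0.013), and the late value was 0.11 (FDR 0.17). Ranked by median, Dox and DMSO2 at 24 h came first, and Ace at 24 h, 5FU at 6 h and 5FU at 24 h came last, the 2 5FU groups each apart from the group above, with the other 7 pairs of neighbours overlapping.

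Hapln1 encodes the link protein that locks versican and related proteoglycans onto hyaluronan, and it lies next to Vcan in the rat annotation. At 30 to 117 reads per library it was a low-count gene. Its libraries ranged from 1.67 CPM in Dox at 6 h to 6.27 CPM in Dox at 24 h. It passed in no comparison of a drug with its control by edgeR's quasi-likelihood test, although 3 of the 6 had an unadjusted p below 0.05, and DESeq2 called 1 of them (Dox at 24 h, 0.43). Under Dox it was -0.45 (SE 0.16, FDR 0.011 by edgeR's quasi-likelihood test) at 6 h and 0.39 (SE 0.16, FDR 0.018) at 24 h, and the effects differed by 0.84 (SE 0.22, FDR 0.00069). The early Dox value passed without library 1 or 2 of DMSO2 or library 2, 3 or 6 of Dox (-0.54 to -0.48) and with library size scaling (-0.60), the late one without library 2 of DMSO2 or library 4 of Dox (0.46 to 0.47), with DESeq2 size factors (0.43) and with library size scaling (0.44), and the Ace value of -0.48 at 6 h (FDR 0.016 by that test) without library 1 of Ace or library 2 of DMSO2 (-0.56 to -0.55) and without the 6 distant libraries (-0.50). All 9 pairs of neighbouring medians overlapped, from Dox at 24 h (median 4.34 CPM) to Ace at 6 h (median 2.53 CPM).

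Comparing the effects at 24 h with those at 6 h, each against its own control, 6 members differed for 5FU (39.5% of all genes), 2 for Ace (11.6%) and 7 for Dox (64.8%). For 5FU these were Has3, Cemip2, Hyal1, Hyal2, Cd44 and Vcan. For Ace they were Hyal1 and Cd44, of which Hyal1 depended on single libraries as given above. Because the count for Ace also tests Cemip through its described value at 6 h, nothing is read from it. For Dox all but Has3 and Vcan differed. The effect against the control moved up with time for Hyal1 and Cd44 under all 3 drugs, and down for Cemip2 under 5FU and Dox. The controls changed over this time too, by -1.05 for Cd44 and 0.68 for Cemip2 on the log2 scale. Median Cd44 fell from 38.8 to 30.1 CPM under 5FU and from 40.5 to 32.7 CPM under Ace. Under Dox it was 59.6 and 58.5 CPM. Median Cemip2 rose from 55.3 to 79.3 CPM under 5FU and from 81.5 to 94.0 CPM under Dox.

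Drugs were also compared with each other at matched times. At 6 h the Dox and 5FU effects differed for 6 members (45.9% of all genes), Ace and 5FU for 1, Cemip2 (30.9%), and Dox and Ace for 6 (62.1%). Both counts with Ace at 6 h test Cemip through its value there, which is only described, and it is among the 6 for Dox and Ace, so nothing is read from these 2 counts. At 24 h the counts were 6 (71.1%), 5 (37.3%) and 9 (80.6%). Dox and Ace share their control, so the latter comparison is of their libraries directly. At 24 h Hyal1 was 2.98 (SE 0.13) higher and Cemip 1.83 (SE 0.19) lower in Dox than in Ace on the log2 scale, and Vcan was 0.73 (SE 0.07) higher, each passing edgeR's quasi-likelihood test. Against 5FU the largest differences of effect at 24 h were 2.73 (SE 0.20) for Hyal1, 1.85 (SE 0.32) for Has2 and 1.54 (SE 0.11) for Vcan, all higher for Dox. For Cemip the Dox and 5FU effects at 24 h were not shown to differ (-0.62, 95% confidence interval -1.14 to -0.10, FDR 0.029 by that test). Of the calls at 6 h, Hyal2 between Dox and 5FU (-0.26) was lost without library 4 of 5FU, 1 or 3 of DMSO1, 7 of DMSO2 or 3, 6 or 7 of Dox (-0.24 to -0.20), without the 6 distant libraries (-0.20), with DESeq2 size factors (-0.24) and when only those groups were fitted (-0.24). The Cemip2 difference between Dox and 5FU (0.35) was lost with library size scaling (0.27).

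In the controls 3 members were higher at 24 h than at 6 h (32.7% of all genes) and 1 was lower (31.9%). Cemip rose by 1.46 (SE 0.11), Cemip2 by 0.68 (SE 0.04) and Vcan by 0.23 (SE 0.05), and Cd44 fell by 1.05 (SE 0.07), with FDR of 7.8e-18, 7e-22, 0.00021 and 9.4e-21 by edgeR's quasi-likelihood test. Cemip and Cemip2 were thus higher later in culture without any drug. Without the 6 distant libraries Hyal2 was called too, at -0.12.

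The controls with 1% and 0.25% DMSO differed at 6 h. There 3 members differed between DMSO1 and DMSO2 (16.5% of all genes), Cemip2 by -0.24 (SE 0.06), Hyal2 by 0.21 (SE 0.06) and Cd44 by 0.34 (SE 0.10). All 3 calls rested on single libraries and on the fit. Cemip2 was lost without library 2 of DMSO1 or 4 of DMSO2 (-0.21 to -0.20), Hyal2 without library 2, 4, 5 or 6 of DMSO1 or 5 or 6 of DMSO2 (0.18 to 0.20), and Cd44 without library 1, 2 or 6 of DMSO1 or 1 or 7 of DMSO2 (0.27 to 0.33), and the count was 0 without library 2 and 1 without library 6 of DMSO1. At 24 h edgeR's quasi-likelihood test called 0 members (0.433% of all genes), with 3 of them at an unadjusted p below 0.05, and DESeq2 called 1. Without library 4 of DMSO1 the count was 1. Vcan came closest, at -0.33 (SE 0.08, FDR 0.013 by edgeR's quasi-likelihood test), and the libraries of the 2 controls did not overlap for it. A drug effect at 6 h from 5FU and one from Dox or Ace are therefore measured from controls that differed. Cell type markers differed between these controls too. In DMSO1 at 6 h 7 of 10 fibroblast markers were lower than in DMSO2 (median -0.45), as were 6 of 8 endothelial markers (median -0.56) and 1 of 5 epicardial ones (median -0.12). Of the cardiomyocyte markers 4 were higher and 1 lower (median 0.10), and of those of smooth muscle 3 were higher and 2 lower (median 0.52). Their part in the result was not tested.

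Scaling by library size alone moved the share of higher calls by more than 10 points in 8 of the 18 comparisons. Of all genes called, 48.9% were higher under 5FU at 6 h with TMM factors and 36.8% without, 49.1% and 33.8% under Dox at 6 h, and 59.9% and 29.6% for DMSO1 against DMSO2 at 6 h. The share rose from 48.8% to 61.4% under Ace at 24 h, from 31.7% to 80.7% for the controls at 24 h, from 47.9% to 77.1% for the change of the Ace effect with time and from 52.5% to 64.8% for that of Dox. Between Dox and Ace at 6 h it went from 49.4% to 36.7%. The median of all genes moved by more than 0.1 for Dox at 6 h, to -0.15, for Dox against Ace at 6 h, to -0.11, and for the change of the Dox effect with time, to 0.27. Which members were called under Dox at 6 h depends on the scaling: without TMM factors Has2, Cemip2, Hyal2 and Hapln1 were called lower and Vcan was not called.

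Other genes of hyaluronan metabolism were followed as lists. Their counts are to be read against the shares of all genes called lower and higher, which at 6 h were 24.5% and 23.4% under 5FU, 15.2% and 16.5% under Ace and 32.7% and 31.5% under Dox, and at 24 h 27.8% and 28%, 19.1% and 18.2%, and 41% and 40.4%. The 7 genes that supply its UDP-sugar building blocks had 4 lower and 1 higher under 5FU at 24 h (median -0.34), led by Uap1 (-0.52, SE 0.11) and Gfpt1 (-0.50, SE 0.06), which act in the hexosamine pathway to UDP-N-acetylglucosamine. Under Dox at 24 h the list had 4 higher and 1 lower (median 0.23), led by Ugp2 (1, SE 0.06), which makes UDP-glucose, and Uap1 (0.75, SE 0.09). At 6 h it had 1 higher and 2 lower under 5FU (median -0.06), 3 higher and 1 lower under Ace (median 0.21), and 2 higher under Dox (median 0.11). Under Ace at 24 h edgeR's quasi-likelihood test called 0 of the 7, with 1 at an unadjusted p below 0.05, and DESeq2 called 0.

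Of 8 further synthesis and breakdown genes 5 were measured, and Hyal4, Hyal6 and Spam1 had no row in the table. Under Dox 4 of the 5 were higher at 6 h (median 0.33), and at 24 h (median -0.17) 1 was higher, Hyal3, and 2 were lower, with Gusb, the lysosomal glucuronidase that trims hyaluronan fragments, at -0.90 (SE 0.06). Gusb was also lower under Ace at 24 h, by -1.003 (SE 0.06). 5FU had 3 higher at 6 h (median 0.35), and 2 higher and 2 lower at 24 h, Gusb being among the latter (-0.22, SE 0.07). Ace had 1 higher at 6 h, and 1 higher and 2 lower at 24 h.

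Of the 7 other hyaluronan receptors, 5 were lower and 2 higher under 5FU at 24 h (median -0.57), where 27.8% of all genes were lower. Under Dox 6 were lower and 1 higher (median -0.98), where 41% of all genes were lower, and under Ace 2 were lower and 2 higher (median -0.29). Hmmr, a receptor that also serves in the mitotic spindle, was the higher gene under Dox, at 2.13 (SE 0.11), and rose under Ace by 1.02 (SE 0.11). Its mean was also higher under 5FU at 24 h, at 26.1 CPM against 17.3 CPM in DMSO1. At 6 h Hmmr was also higher under Dox, by 0.54 (SE 0.11), but lower under Ace, at -0.73 (SE 0.12), and under 5FU, at -0.48 (SE 0.12). Layn, a membrane receptor, rose under 5FU at 24 h by 0.80 (SE 0.09) and was lower under Dox, at -1.02 (SE 0.09). Stab1, a scavenger receptor of endothelium and macrophages, fell by 1.41 under 5FU at 24 h (SE 0.12). At 6 h the list had 2 lower under 5FU (median -0.10), 3 lower and 1 higher under Ace (median -0.51), and 2 in each direction under Dox (median -0.16).

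Versican is cut by proteases of the ADAMTS family, of which 6 genes were followed. All 6 were lower under 5FU at 24 h (median -1.20), where 27.8% of all genes were, Adamts5 by -2.64 (SE 0.14) and Adamts4 by -1.29 (SE 0.11), after 4 of 6 at 6 h (median -0.72, 24.5% of all genes). Ace had 3 of 6 lower at both times (medians of -0.47, 15.2% and 19.1% of all genes), Adamts5 by -1.69 (SE 0.12) at 24 h. Under Dox at 24 h the median was -1.29, and 4 were lower (41% of all genes), with Adamts9 at -1.84 (SE 0.09), and 2 were higher, with Adamts1 at 2.07 (SE 0.11), and at 6 h 3 were lower and 3 higher (median -0.04). Vcan itself was not lower under Dox.

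Among 9 measured of 18 other hyaluronan-binding matrix genes, Dox had 5 higher and 1 lower at 6 h and 5 higher at 24 h (median 0.63), 5FU had 2 higher and 3 lower at 6 h and 4 higher and 2 lower at 24 h, and Ace 1 in each direction at 6 h and 2 in each at 24 h. Bcan, Ncan, Itih1, Itih2, Itih3, Itih5, Ambp, Habp2 and Impg1 had no row. Habp4, an intracellular hyaluronan-binding protein, rose by 0.71 (SE 0.07) under Dox, 0.67 (SE 0.07) under Ace and 0.44 (SE 0.08) under 5FU at 24 h. At 6 h it was higher under Dox, by 0.85 (SE 0.07), and Ace, by 0.42 (SE 0.07), but lower under 5FU, at -0.52 (SE 0.08), and between the controls it was 0.78 (SE 0.07) higher in DMSO1 at that time. Of the 7 genes for proteins that link CD44 to actin or shed it, 5 were lower and 1 higher under Dox at 24 h (median -0.85), where 41% of all genes were lower and 40.4% higher, Ezr by -1.19 (SE 0.05) and Adam10 by -1.15 (SE 0.06), while Cd44 rose. Under the other comparisons 2 or 3 of those 7 were lower, and 1 was higher under Dox at 6 h and 2 under 5FU at 24 h.

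Cell type markers also changed. In bulk RNA, fewer cells of a type and less RNA per cell cannot be told apart. The 10 fibroblast markers were lower in 10 of 10 under 5FU at 24 h (median -1.25), 9 of 10 under Ace (median -1.03) and 10 of 10 under Dox (median -2.14). Their sum, with Col1a1 highest in CPM in every group, ran from 5201 to 5872 CPM (median 5673) under 5FU, against 10020 to 19960 CPM (median 16300) in DMSO1 at 24 h. It ran from 7307 to 9334 CPM (median 7900) under Ace and from 1947 to 4101 CPM (median 3540) under Dox, against 15170 to 18960 CPM (median 16670) in DMSO2. The list was thus lowest under Dox and did not overlap its control under any drug at 24 h. Cemip fell in the same 3 comparisons, Vcan under 5FU (-1.43) and Ace (-0.62), and Cemip2 under 5FU (-0.76) and Dox (-0.42). Has2 fell under 5FU (-1.33), and Hyal2 under Ace (-0.18), a call lost without single libraries. Hyal1 and Cd44 rose in all 3, Has3 and Hyal2 rose under 5FU and Dox, and Vcan under Dox was not called.

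At 6 h the fibroblast list had 3 of 10 lower under 5FU, 7 under Ace and 6 under Dox, with medians of -0.11, -0.37 and -0.39. Its sum ran from 6443 to 10800 CPM under 5FU and from 6546 to 10960 CPM in DMSO1, and from 7375 to 11000 CPM under Ace and 7809 to 10230 CPM under Dox against 9739 to 14520 CPM in DMSO2. The summed ranges of 5FU and DMSO1 nearly coincided. Of the 10 markers 3 were lower under 5FU at that time, Pdgfra by -1.49 (SE 0.10) and Tcf21 by -0.86 (SE 0.12) among them, and 7 were not called. The mean CPM of Dcn, Thy1, Lum, Col1a1 and Col1a2 was higher under 5FU than in DMSO1. That of Pdgfra, Tcf21, Postn, Col3a1 and Ddr2 was lower, and 0 of the list were called higher. Cemip was 5.79-fold lower in the same comparison. In the controls 9 of 10 fibroblast markers were higher at 24 h than at 6 h (median 0.40), as was Cemip. The part of these markers in the results was not tested.

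**Figure D2:**
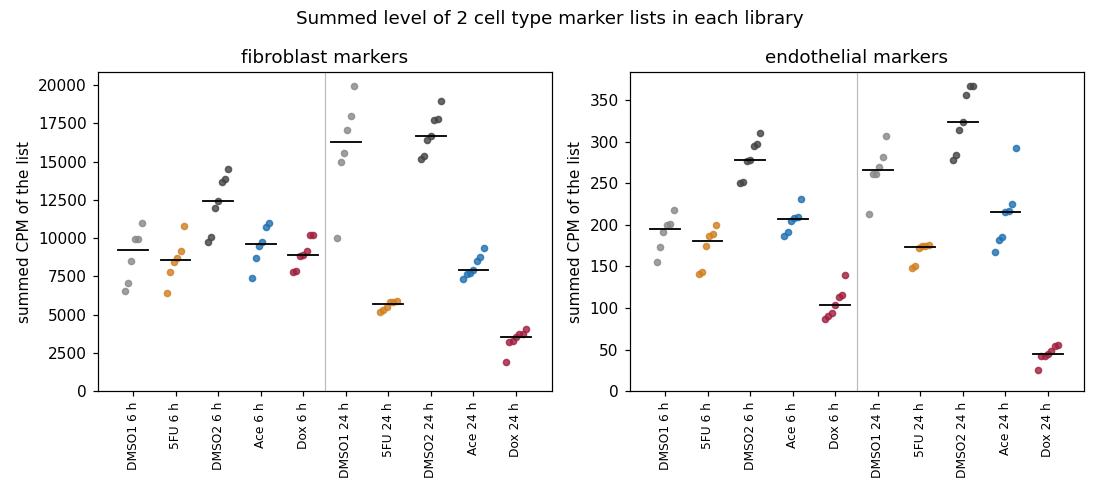
Summed CPM of the 10 fibroblast markers (left) and the 8 measured endothelial markers (right) in each library, by group, with 1 point per library and a black bar at the group median. Both sums are lowest in Dox at 24 h, with medians of 3540 and 44.97 CPM.

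Endothelial markers were lower in 8 of 8 measured under Dox at both times (medians -1.47 and -2.67), in 6 of 8 under 5FU and 5 of 8 under Ace at 24 h, and in 3 of 8 under each of these at 6 h. Their sum had a median of 44.97 CPM under Dox at 24 h, with Kdr at the highest mean, 13.6 CPM, against 324 CPM in DMSO2, where Cdh5 had the highest, 101 CPM. Macrophage markers were lower in 10 of 10 under Dox at 24 h (median -1.62), 6 of 10 under Ace and 4 of 10 under 5FU, where 1 was higher. At 6 h macrophage markers had 2 in each direction under 5FU and Dox and 1 lower under Ace. Cardiomyocyte markers were lower in 9 of 11 under Dox at 24 h (median -0.64), with Nppa higher by 3.52 (SE 0.17) and named after its values were seen, and Myh6 lower by -4.13 (SE 0.11), and in 6 of 11 under 5FU and 4 of 11 under Ace at 24 h, with 2 higher under each. In the same libraries Hyal1 was 14.95-fold and Cd44 2.80-fold above the control.

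Earlier, 7 of 11 cardiomyocyte markers were higher and 3 lower under Dox, 2 higher and 1 lower under 5FU, and 1 lower under Ace. Smooth muscle and pericyte markers went both ways under Dox, 4 higher and 2 lower at 6 h and 3 in each direction at 24 h. Under 5FU they had 1 in each direction at 6 h and 4 lower and 2 higher at 24 h, and under Ace 4 lower at 24 h. Ace at 6 h had 0 of these 7 called by edgeR's quasi-likelihood test, 3 at an unadjusted p below 0.05, and 1 called by DESeq2. Epicardial and mesothelial markers, with Tbx18 highest in CPM, were lower in 5 of 5 under 5FU (median -0.88) and in 4 of 5 under Ace (median -0.96) and Dox (median -1.24) at 24 h, where 1 was higher under Dox, and in 3, 2 and 2 of 5 at 6 h. Ttn and Pecam1 had no row in the table, and no measured marker was at 0 in all libraries of a group. The part of these markers in the results was not tested either.

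Over the 10 group means, the genes that ran most like a member were named, for every member but Has2, by Pearson's r of mean log2 CPM, as a description over groups that share the same 65 libraries. Closest to Cemip were Fbn2 (r = 0.97), a fibrillin of elastic microfibrils, Sema3d (0.96) and Gpr153 (0.96). Closest to Hyal1 were Pmm1 (0.99), a phosphomannomutase, Arvcf (0.99) and Inka2 (0.98). Those nearest to Cd44 were Tubb4b (0.97), Reep4 (0.96) and Psmc3ip (0.96). For Vcan they were Fam174b (0.95), Mex3a (0.94) and Gmpr2 (0.94). Has3 was nearest to Tomm34 (0.97), Agpat1 (0.96) and Tmbim6 (0.95). For Cemip2 these were Psen2, Tle2 and Invs (all 0.95), for Hyal2 Ppp6c (0.93), Tmed5 (0.92) and Cog1 (0.92), and for Hapln1 Wipf3 (0.95), Hnrnpul1 (0.92) and Lfng (0.89). Among the members themselves Has3 and Hyal1 (0.89) and Has2 and Vcan (0.86) ran most alike.

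Promoter windows of 250 bases before the start were found for 6 of the 9 members in RefSeq (build GRCr8), Cemip, Hyal1, Hyal2, Cd44, Vcan and Hapln1. They were searched on both strands for the TATA box TATAAA, the GC box GGGCGG, the AP-1 motif TGANTCA, the cyclic AMP element TGACGTCA and the E-box CACGTG, none of which contains another. Among 33469 windows of that length, 12.9% held TATAAA, 30.5% GGGCGG, 6.34% TGANTCA, 1.59% TGACGTCA and 5.59% CACGTG. Cemip and Hyal1, the members with the largest fall and the largest rise, are shown, with motif matches in capitals. The Cemip window lies on the minus strand at chr1:147471484-147471733 and has a GC content of 72%. It holds TATAAA beginning 31 bases before the start, and GGGCGG in reverse (CCGCCC) at 170 and 147 bases. The Hyal1 window lies on the plus strand at chr8:117129061-117129310, with 57.2% GC, and holds the GC box in reverse at 57 bases before the start and no TATAAA. Of the other windows, Hyal2 and Vcan held 1 GC box each (at 20 and 172 bases), and Cd44 and Hapln1 none of the 5 motifs.
Cemip: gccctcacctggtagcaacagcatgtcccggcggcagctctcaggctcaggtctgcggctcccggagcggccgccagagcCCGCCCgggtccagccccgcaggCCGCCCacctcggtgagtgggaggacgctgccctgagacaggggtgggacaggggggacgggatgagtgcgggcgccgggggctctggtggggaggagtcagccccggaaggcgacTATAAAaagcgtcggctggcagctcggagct
Hyal1: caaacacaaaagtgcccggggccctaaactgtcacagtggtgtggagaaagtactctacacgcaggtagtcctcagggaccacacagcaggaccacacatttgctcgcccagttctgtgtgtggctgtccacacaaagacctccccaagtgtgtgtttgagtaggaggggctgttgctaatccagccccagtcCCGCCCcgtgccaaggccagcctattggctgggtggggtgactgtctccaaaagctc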

How the data were processed

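Poly(A) RNA of 65 cultures was sequenced. The authors estimated counts with kallisto 0.46.0 on the rat Ensembl transcriptome, summed them to genes and removed genes with low counts, and the deposited values are expected counts per gene, rounded to whole numbers, with 14332827 to 25738297 per library. All 14554 genes reached the minimum count of 10 somewhere, and they were fitted once with 10 groups in edgeR 4.0.16 (quasi-likelihood test, TMM factors) under R 4.3.3. Benjamini-Hochberg values below an FDR of 0.01 over all genes were called. Levels are CPM on TMM-scaled library sizes. Standard errors were taken from the test's F. The alternatives were DESeq2 1.42.0, its size factors, library size only, edgeR's filter or none, an FDR of 0.1, the compared groups only, and each library left out. Leaving out together the libraries far from their group median was chosen after seeing the data. Genes of the other lists were named by size of change, at most 2 per list and comparison, among those called with a mean count of at least 100. Symbols and promoters came from RefSeq (GRCr8). The members and lists were chosen with earlier results of these data known. Only Cemip under Ace at 6 h was treated as a value used in that choice.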

Additional observations from a re-analysis of the deposited data

Results flagged for a closer look

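Of 90 sets of libraries (9 genes in 10 groups) 13 held a library far from the others of its group by Dixon's test, and chance flags about 1 in 20 groups. Library 1 of DMSO1 at 24 h was such a library for 3 genes, with 1.47 CPM of Has2, 32.4 CPM of Cd44 and 108 CPM of Vcan. Library 7 of Ace at 24 h was one for Hyal1, at 8.06 CPM, and for Vcan, at 159 CPM. For Cemip these were library 6 of 5FU at 6 h (6.20 CPM), library 2 of Ace at 6 h (7.21 CPM) and library 3 of DMSO2 at 6 h (16.8 CPM). The others were library 4 of 5FU at 6 h for Hyal2 (62.1 CPM), library 2 of 5FU at 24 h (36.3 CPM) and library 7 of Dox at 6 h (43.5 CPM) for Cd44, library 2 of Dox at 6 h for Vcan (200.4 CPM), and library 6 of Dox at 24 h for Hapln1 (6.27 CPM).

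The effect at 24 h differed from that at 6 h in 15 cases by edgeR's quasi-likelihood test, given as the later minus the earlier log2 fold change. For 5FU the differences were 0.75 for Has3, -0.33 for Cemip2, 0.85 for Hyal1, 0.60 for Hyal2, 0.85 for Cd44 and -0.81 for Vcan. For Ace they were 0.73 for Hyal1 and 0.61 for Cd44. For Dox they were 1.10 for Has2, -3.53 for Cemip, -0.34 for Cemip2, 2.47 for Hyal1, 0.39 for Hyal2, 0.90 for Cd44 and 0.84 for Hapln1.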

How the results depend on the processing

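Of 120 log2 fold changes followed, 86 were called. Of these, 74 were called under every alternative run, 12 lost the call under at least 1, and 0 changed direction. In the comparisons of effects, between times or between drugs, only members already called were followed. DMSO1 against DMSO2 at 24 h, with no member called, was left out. The 86 of 120 is therefore not a rate of calling. Among those followed are Cemip under Ace at 6 h, which is only described, and the Cemip difference between Dox and Ace at 6 h. Nothing is read from either. With library size only, the members called went from 4 to 7 for Dox at 6 h, from 3 to 1 for DMSO1 against DMSO2 at 6 h and from 1 to 2 for Ace against 5FU at 6 h. With the compared groups only, the last 2 were 0 and 2. At an FDR of 0.1, 5 members were called for Ace at 6 h (2 at 0.01), 5 and 2 for DMSO1 against DMSO2 at 6 and 24 h, 4 for the time difference of Ace and 6 for Ace against 5FU at 6 h. All counts in this section that use Ace at 6 h test Cemip through its described value, so nothing is read from them. DESeq2 called 1 for DMSO1 against DMSO2 at 24 h. Without the 6 distant libraries 4 were called for Ace at 6 h and 3 for Ace against 5FU at 6 h. Leaving out each library in turn, the counts ran from 0 to 3 and from 0 to 1 for the DMSO comparisons at 6 and 24 h, from 1 to 3 for the time difference of Ace and from 1 to 2 for Ace against 5FU at 6 h. The cause was not tested.

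The values that changed direction were not called. Hapln1 under 5FU at 6 h (0.00297) was -0.065 with library size only, -0.00196 with the compared groups only and -0.145 to 0.0902 with each library left out. Hyal2 under Ace at 6 h (0.0250) was -0.00603 with library size only and -0.00367 without the distant libraries. Cemip in DMSO1 against DMSO2 at 6 h (-0.0130) was 0.02 without them and -0.122 to 0.0557 with each library left out. The cause was not tested. The mean of Hyal2 in 5FU at 6 h was 56.2 CPM and 52.4 CPM with library size only. No paired analysis was possible because the columns carry no replicate numbers. Counts as low as 14 per library limit the precision for Has2.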
